A study of Mus musculus with 10 samples.

Results

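Histone genes encode the proteins around which DNA is wound. The gene family was taken from the array by symbol, as every gene whose current symbol begins with H1f, H2ac, H2bc, H3c, H3f or H4c (or the older Hist and H2af names), and 50 of the 20508 named genes on the array were members. Of these, 43 were replication-dependent and 7 were variants. The replication-dependent members were 5 H1, 13 H2A, 10 H2B, 7 H3 and 8 H4 genes, of which 35 lie in the histone cluster of mouse chromosome 13 and 8 in that of chromosome 3. The variants were the linker histones H1f0, H1f6, H1f7, H1f8 and H1f10 and the H3.3 genes H3f3a and H3f3b. The split was made by gene symbol. By it H2ac1 and H2bc1 were counted as replication-dependent, although H2ac1 is known from testis, as H1f6 and H1f7 are. Expression of EML-C1, a line of mouse blood progenitors, was measured on 10 one-colour Agilent arrays with 1 array for each condition. Cells had received 10 ng/ml erythropoietin (EPO), 10 ng/ml IL-3 with 10 µM all-trans retinoic acid (IL-3/GM-CSF, since the cells were also given 10 ng/ml GM-CSF once day 3 had passed), or both sets of factors (combined). At day 3 each culture was sorted into cells with low and with high Sca1, a surface protein of progenitors, and day 6 cells were measured without this split. The 10th array held the untreated cells of day 0. All cultures carried horse serum and conditioned medium, and every group is 1 cell line. The series design speaks of duplicates, and the second set is not analysed here.

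Cells in S phase make replication-dependent histones in bulk to package new DNA, and the mRNAs of these genes mostly end in a stem-loop instead of a poly(A) tail. Variant histones are made through the cell cycle or in particular cell types, from polyadenylated mRNAs. Some replication-dependent genes are also known to give polyadenylated transcripts when cells differentiate. During red cell maturation the nucleus shrinks and histones are partly released from it, while neutrophils carry enzymes that modify histones in a condensed, lobed nucleus. Per the labels' protocols the RNA was labelled from an oligo-dT primer, which anneals to a poly(A) tail. Members of a histone class are nearly identical in their coding sequence, and a probe for one can hybridize with others. Neither point was tested with these data.

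Promoters of 5 members are shown because the results below turn on these genes: H2ac18 and H2bc8 differed most between the Sca1 fractions, H2ac19 is the near-copy of H2ac18 that did not, and H3f3b and H1f0 are variants. Each line gives the 150 bases just before the annotated start, 5′ to 3′ on the gene's strand, from RefSeq on build GRCm38.p6. Capitals mark 3 motifs, each searched on either strand and counted for itself. The first is TATAAA, the element at which the basal machinery binds. The second has the letters CCAAT and is common in promoters of cell cycle genes. The third is ATTTGCAT, the octamer known from H2B promoters.
H2ac18, chr3:96245347-96245496, plus strand: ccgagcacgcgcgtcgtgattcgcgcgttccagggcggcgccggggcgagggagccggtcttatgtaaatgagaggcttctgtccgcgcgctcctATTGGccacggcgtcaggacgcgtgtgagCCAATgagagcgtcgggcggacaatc
H2ac19, chr3:96240375-96240524, minus strand: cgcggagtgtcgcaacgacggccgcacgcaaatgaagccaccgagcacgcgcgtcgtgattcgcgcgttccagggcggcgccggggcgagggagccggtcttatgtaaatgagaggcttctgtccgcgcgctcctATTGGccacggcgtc
H2bc8, chr13:23571250-23571399, plus strand: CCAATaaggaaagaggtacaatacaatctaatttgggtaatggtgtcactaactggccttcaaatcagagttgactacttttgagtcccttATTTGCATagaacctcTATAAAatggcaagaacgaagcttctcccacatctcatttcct
H3f3b, chr11:116024505-116024654, minus strand: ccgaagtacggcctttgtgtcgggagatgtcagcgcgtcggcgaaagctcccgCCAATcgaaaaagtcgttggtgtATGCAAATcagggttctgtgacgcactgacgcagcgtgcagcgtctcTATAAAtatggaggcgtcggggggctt
H1f0, chr15:79028062-79028211, plus strand: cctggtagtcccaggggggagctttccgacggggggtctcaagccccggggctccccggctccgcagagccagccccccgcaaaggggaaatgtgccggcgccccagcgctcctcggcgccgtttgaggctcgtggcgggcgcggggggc
The windows of H2ac18 and H2ac19 shared an identical run of 219 of 300 bases, so both genes stand behind almost the same upstream sequence. The window of H2bc8 overlapped that of the H2A gene H2ac8 by 279 bases, and the pair is transcribed in opposite directions. In 300-base windows that reach 250 bases upstream of the start, TATAAA stood in 64.1% of 39 replication-dependent windows and in 13.6% of all 32851 windows. CCAAT stood in 87.2% of the replication-dependent windows and in 37.4% of all windows. The octamer ATTTGCAT stood in 30.8% of them and in 1.74% of all. Of the 7 variant windows 1 held TATAAA, 4 held CCAAT and 1 held the octamer. The window of H3f3b printed above holds each of the 3 motifs once, and that of H1f0 holds none, which says only that these letters are not in this window.

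Levels are given as the log2 processed intensity minus the log2 of the 75th percentile of the same array, so that a level of 0 is the brightness of that percentile. Where a gene had several probes the brightest was used, and no gene's level is set against another's. Well above background is the mark the extraction software gives to a spot clearly brighter than its surroundings. Of the 50 members 44 were well above background on all 10 arrays (40 replication-dependent and 4 variant), and 49 were so on at least 2 arrays and were tested. The linker histone gene H1f3 was not well above background on any array. The 75th percentile was 309 intensity units on the EPO Sca1-low array, 478 on EPO day 6 and between 590 and 736 on the other 8. Repeat spots of a probe had a median SD between 0.04 and 0.09 log2 per array. The arrays lay on 3 slides: EPO day 6, combined day 6 and untreated on the first, the 4 day 3 arrays of EPO and IL-3/GM-CSF on the second, and the combined day 3 arrays with IL-3/GM-CSF day 6 on the third. Each Sca1 pair therefore shared a slide, while no day 3 array shared one with untreated cells.

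The fractions differed in the sorted gene, and the other progenitor markers followed it only in part. Ly6a, which encodes Sca1 and was the basis of the sort, had levels of -4.25, -3.43 and -2.80 in the Sca1-low arrays (EPO first, then IL-3/GM-CSF, then combined), against 4.76, 2.64 and 1.89 in the matching Sca1-high arrays. The spot of Ly6a on the EPO Sca1-low array was not well above background. Of 7 progenitor markers, Ly6a among them, 3 were called lower in Sca1-low cells, beside 6.98% of all genes. Flt3 and Tal1 had fitted differences above 0, at 0.34 and 0.27 log2. All 8 erythroid markers measured were called higher in Sca1-low than in Sca1-high cells, beside 4.09% of all genes. The median erythroid marker level was 4.52, 4.55 and 4.49 in the 3 Sca1-low arrays, against 2.55, 0.67 and 1.22 in the Sca1-high arrays. Mast cell and basophil markers ran the other way, with 3 of 5 called lower in Sca1-low cells, beside 6.98% of all genes. Because RNA was pooled from many cells, fewer cells of a type and less RNA per cell cannot be told apart in any of these levels.

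No member of the histone family passed the test between the Sca1 fractions over the 3 cultures. In the limma fit of the 6 day 3 arrays with culture as a block, 0 of 49 members passed an adjusted p of 0.05 in Sca1-low against Sca1-high cells. Of all 14217 genes 11.1% passed (1574 genes), and at an unadjusted p under 0.05 the counts were 4 of 49 members and 30.9% of all genes. The 42 replication-dependent genes had a median difference of 0.36 log2, with 30 above and 12 below 0, beside 60.1% of all genes above 0. The 7 variants had a median of -0.19, and all genes had a median of 0.17. The replication-dependent median was -0.12 without the EPO pair and -0.19 with each array scaled to spike-in probes. With 3 pairs and 2 residual degrees of freedom the fit found 1 of 50 simulated shifts of 1 log2 and 19 of 50 shifts of 2 log2. Far fewer genes were shifted in the simulation than were called in the data, which makes its adjusted p stricter. The simulation therefore does not give the share of such differences that the fit would miss here. In the fit of all 10 arrays 0 of the 14217 genes passed in this comparison.

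The median hid opposite values in the 3 cultures. Replication-dependent genes had a median Sca1-low minus Sca1-high difference of 0.98 in EPO, -0.31 in IL-3/GM-CSF and 0.15 in the combined culture. In EPO 20 of 42 were at least 2-fold higher in Sca1-low cells and 0 were 2-fold lower, where 12.3% and 14.7% of all genes passed those folds. In IL-3/GM-CSF 0 of 42 were 2-fold higher and 2 were 2-fold lower, against 9.26% and 13.9% of all genes. In the combined culture 1 of 42 was 2-fold higher and 3 were 2-fold lower, against 11.8% and 12% of all genes. These differences between 2 arrays have no replicate check, and the difference between the cultures was not tested. With the spike-in scaling the 3 medians were -0.26, -0.26 and -0.29. Only 8 of the 42 were higher in Sca1-low cells in all 3 cultures and 6 were lower in all 3, beside 34.0% and 20.9% of all genes.

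**Figure D1:**
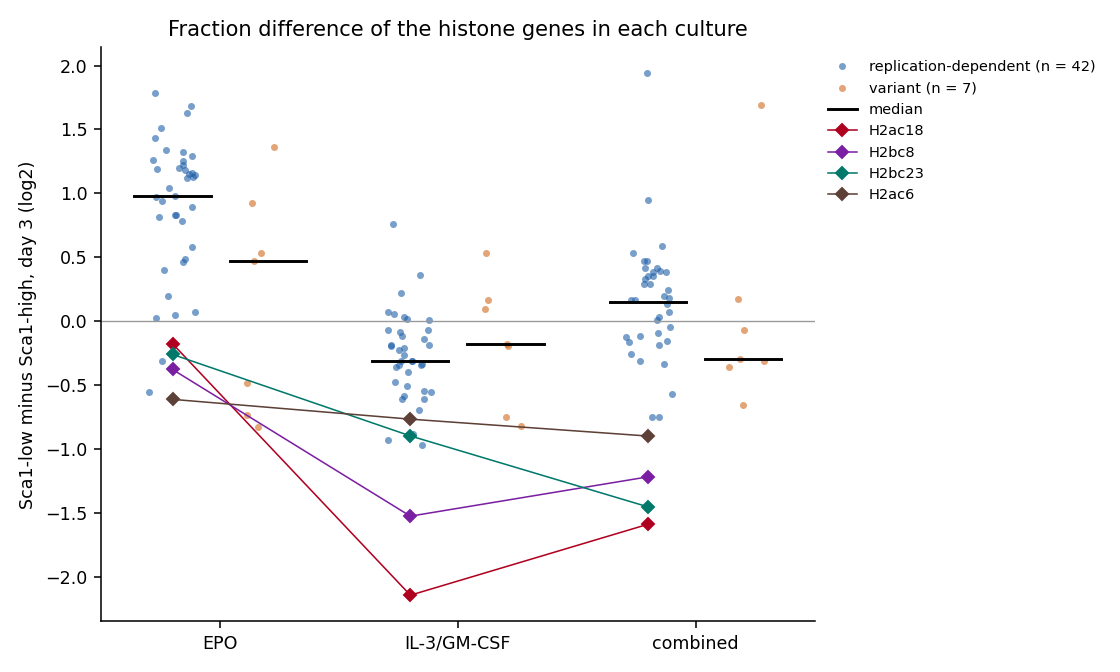
Sca1-low minus Sca1-high difference at day 3 (log2, each array relative to its 75th percentile) for the 49 histone genes tested, 1 pair of arrays per culture. Each point is a gene, bars are medians (0.98, -0.31 and 0.15 for replication-dependent genes in the EPO, IL-3/GM-CSF and combined cultures), and diamonds joined by lines follow the 4 genes with an unadjusted p under 0.05, which lie below 0 in every culture.

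Of 49 members 4 had an unadjusted p under 0.05 between the fractions (limma), beside 30.9% of all genes, and none passed after adjustment. These 4 were H2A and H2B genes with fitted differences below 0. They were picked by this p, so their same sign in each culture is not a separate result. H2ac18, a core H2A gene of the chromosome 3 cluster, had levels of 1.30, 0.14 and 0.63 in Sca1-low cells of the EPO, IL-3/GM-CSF and combined cultures, against 1.48, 2.28 and 2.21 in Sca1-high cells. It was 1.36 to 1.76 in the 3 day 6 arrays and 0.37 in untreated cells. The fraction levels did not overlap, although the EPO pair was only 0.18 apart. Its fitted difference was -1.30 ± 0.43 log2 (SE, n = 3 pairs, limma, adjusted p = 0.12).
H2ac19, which shares the promoter run shown above, did not follow it. Its level was 9.76, 9.10 and 9.09 in Sca1-low cells, against 8.95, 9.05 and 8.67 in Sca1-high cells, and Sca1-low was the higher array of each pair. The probes of such near-copies may take signal from each other, and the extent was not tested.

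H2bc8, an H2B gene of chromosome 13, had levels of -1.04, -1.46 and -1.42 in Sca1-low cells, against -0.66, 0.07 and -0.21 in Sca1-high cells. Every Sca1-low array was below every Sca1-high array. The fitted difference was -1.04 ± 0.30 log2 (SE, n = 3 pairs, limma, adjusted p = 0.096). H2ac8, whose promoter window overlaps it, had levels of -0.53, -1.29 and -1.32 in Sca1-low cells and -0.93, -0.93 and -1.21 in Sca1-high cells. Those ranges overlapped, with Sca1-low lower in 2 of 3 pairs.

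H2ac6, an H2A gene, was at -4.01, -2.98 and -2.42 in Sca1-low cells, against -3.39, -2.21 and -1.52 in Sca1-high cells. It was lower in Sca1-low cells in each pair, but its EPO Sca1-low spot was not marked as well above background, so the size of that step is not known. The values as measured gave a fitted difference of -0.76 ± 0.20 log2 (SE, n = 3 pairs, limma, adjusted p = 0.085), the lowest adjusted p of any member. H2bc23, an H2B gene, was at -5.47, -4.75 and -4.78 in Sca1-low cells and at -5.21, -3.85 and -3.32 in Sca1-high cells. It was well above background on only 4 of the 10 arrays, so its differences are those of a dim probe. Its fitted difference was -0.87 ± 0.30 log2 (SE, n = 3 pairs, limma, adjusted p = 0.13).
Without the EPO pair the limma fit held only the IL-3/GM-CSF and combined pairs, with fewer residual degrees of freedom than the main fit. In it H2ac18, H2bc8 and H2bc23 passed, at -1.87, -1.37 and -1.18 log2 with adjusted p of 0.014, 0.027 and 0.049. The EPO pair was the one in which these 3 genes differed least, by -0.18, -0.38 and -0.26 log2. The fit without it called 2309 of 14217 genes and 3 of 49 members, a smaller share of members than of all genes. H2bc23 was not well above background on either Sca1-low array left in that fit. H2ac18 and H2bc8 also passed among genes well above background on all arrays, with adjusted p of 0.034 and 0.027, and under spike-in scaling, at -1.84 and -1.58 log2 with adjusted p of 0.019 and 0.042. The filter on all arrays also called more genes in total than the main fit. How many genes were called under spike-in scaling is not given here, so those calls have no background beside them.

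The other replication-dependent genes with large fitted fraction differences lay above 0. They were H2ac1 (0.98 ± 0.46), H4c11 (0.67 ± 0.40), H1f5 (0.64 ± 0.33), H2ac21 (0.60 ± 0.36), H2ac20 (0.60 ± 0.28) and H4c3 (0.53 ± 0.44), all in log2 with the SE over 3 pairs, and none passed (limma adjusted p of 0.22 to 0.45). H2ac1, the H2A gene known from testis, was at 2.56, 1.24 and 1.34 in Sca1-low cells, against 1.34, 1.46 and -0.60 in Sca1-high cells. Its values overlapped, and its low value on the combined Sca1-high array set much of the difference. H1f5, a main linker histone of dividing cells, was at 7.11, 5.97 and 5.86 in Sca1-low cells and 5.68, 5.95 and 5.39 in Sca1-high cells. H4c3 was at 4.95, 3.36 and 3.43 in Sca1-low cells, against 3.27, 3.70 and 3.19 in Sca1-high cells. In both genes the EPO Sca1-low array was the high one and the other 5 lay close together.

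That array stood apart for most replication-dependent genes. On the scale of the 75th percentile 30 of the 42 tested had their highest level of all 10 arrays in EPO Sca1-low cells. The share of all genes with their highest level on that array is not given here, so this count has no background beside it. Against untreated cells 26 of 42 were at least 2-fold higher and 1 was 2-fold lower, where 18.5% and 17.8% of all genes passed those folds. The median difference was 1.20 for replication-dependent genes, and 0.18 for all genes. Probes of near-identical members may share signal, so member counts here and in the other array comparisons may not be of independent genes. The extent was not tested. By class the median was 1.44 for 8 H4 genes (8 above 0), 1.25 for 13 H2A genes (12 above 0), 1.01 for 4 H1 genes (4 above 0), 0.69 for 7 H3 genes (6 above 0) and 0.22 for 10 H2B genes (6 above 0). The H2B genes were split: H2bc1 was 5.37 in EPO Sca1-low and 4.25 in untreated cells, while H2bc8 was -1.04 in EPO Sca1-low and -0.22 in untreated cells.

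**Figure D2:**
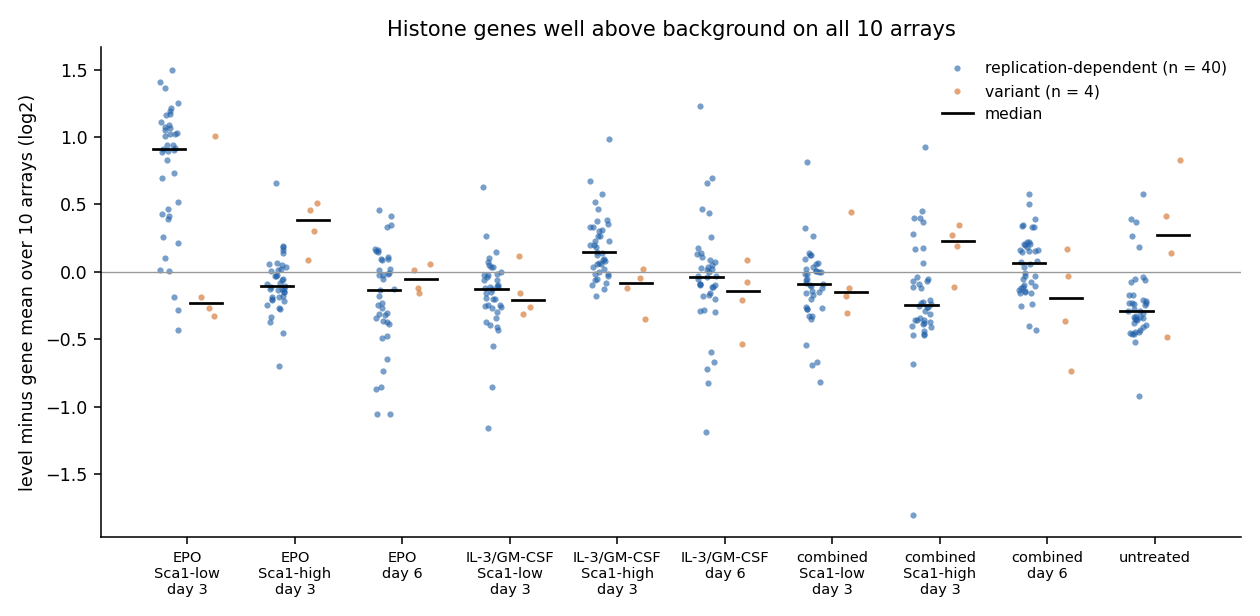
Level of each of the 44 histone genes well above background on all 10 arrays, as log2 distance from its own mean over the arrays (y axis), for each array (x axis). Points are genes, blue for 40 replication-dependent and orange for 4 variant ones, and bars are medians. The blue points stand highest on the EPO Sca1-low array, where 3 of the 4 orange points lie below 0.

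The brightness of that array bears on this value. Before scaling, the replication-dependent genes of EPO Sca1-low cells had a median difference of -0.06 log2 from untreated cells, with 17 of 42 above 0. The 75th percentile of the array was lower by 1.25 log2, and all genes had an unscaled median of -1.08. The variants had a median of -1.07, which was the value of H1f7, not well above background on either array. Of the 4 variants well above background on all arrays, H1f0, H3f3a and H3f3b were dimmer than in untreated cells and H1f8 was brighter. The E1A spike-in probes, control spots for RNA that the platform's method adds at labelling, were 0.47 log2 brighter than on the untreated array. The labels' protocols do not state the amount added.
H2ac12, an H2A gene, gave intensities of 465668, 501190 and 420297 in EPO Sca1-low, Sca1-high and day 6 cells. It gave 449273, 483495 and 438744 in the same order of IL-3/GM-CSF cells, 469325, 434487 and 472595 in the combined cells and 452432 in untreated cells. It was near constant on all 10 arrays before scaling, and no spot on any array was marked as saturated. Whether a probe this bright still follows a change in RNA was not tested. H3f3b, an H3.3 gene, gave 32275, 90467 and 57242 in the 3 EPO arrays, 61116, 68286 and 71199 in IL-3/GM-CSF, 64555, 93132 and 89818 in the combined cells and 96126 in untreated cells. It was lowest on the EPO Sca1-low array, as the 75th percentile was.
With each array scaled to the spike-ins, the replication-dependent genes lay below untreated cells in EPO Sca1-low cells, with a median of -0.53, 0 of 42 at least 2-fold higher and 12 at least 2-fold lower. All genes then had a median of -1.54. The direction of the replication-dependent genes against untreated cells was thus set by the scaling.
Their distance from the variants was not set by a scaling by 1 factor per array, because that moves both alike. An effect that differs between bright and dim spots is not covered by this. Over the 44 genes well above background on all arrays the replication-dependent median stood 1.73 log2 above the variant median in EPO Sca1-low minus untreated. The same distance was between 0.04 and 0.73 in the other 8 treated arrays. Over all 49 tested genes, with the dimmer variants H1f6, H1f7 and H1f10 included, the distance was 1.01 in EPO Sca1-low minus untreated and between -0.04 and 0.57 in the other 8. The variant median behind the 1.01 was the value of H1f7, not well above background on either array.

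**Figure D3:**
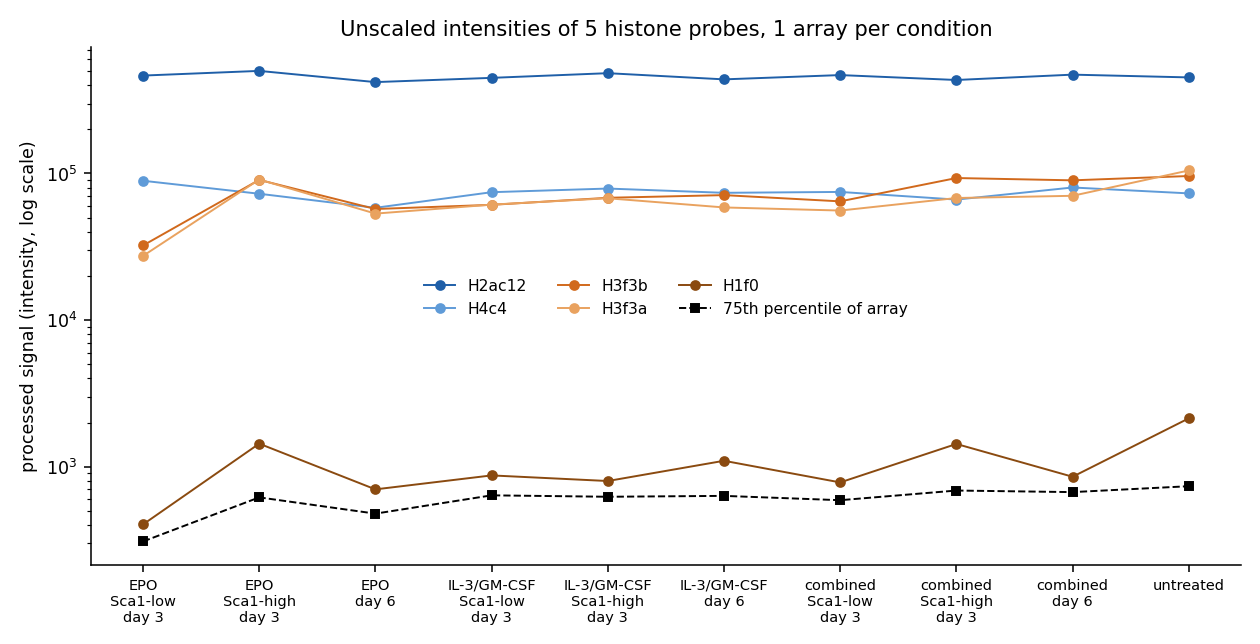
Processed intensity before scaling (log axis) of 5 histone probes and the 75th percentile of each array (black squares) on the 10 arrays. H2ac12 stays between 420297 and 501190 throughout, while the H3.3 genes H3f3a and H3f3b, the linker gene H1f0 and the 75th percentile all have their lowest value in EPO Sca1-low cells.

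**Figure D4:**
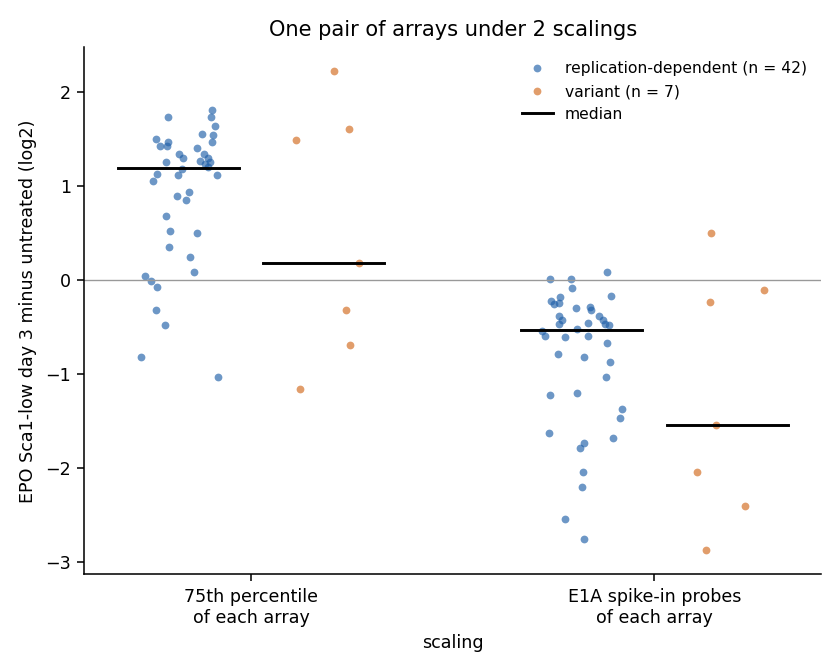
EPO Sca1-low minus untreated difference (log2) of the 49 tested histone genes with each array scaled to its 75th percentile (left) or to its E1A spike-in probes (right), 1 array per group. Bars are medians, 1.20 and -0.53 for the 42 replication-dependent genes and 0.18 and -1.54 for the 7 variants. Both variant medians are the value of H1f7, which was not well above background on either array.

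The variants did not move as a class. H1f0, the linker histone that accumulates in cells leaving the cycle, was at 0.39, 1.22 and 0.55 in the EPO arrays (Sca1-low, Sca1-high, day 6), 0.45, 0.36 and 0.80 in IL-3/GM-CSF, 0.40, 1.06 and 0.35 in the combined culture and 1.54 in untreated cells. All 9 treated arrays lay below the untreated one. The fitted differences from untreated cells were -0.82, -1.0 and -0.94 log2 for EPO, IL-3/GM-CSF and combined (each with an SE of 0.40), with limma adjusted p of 0.46, 0.74 and 1.00, and the 3 comparisons share the untreated array.
H3f3a, which encodes the replacement histone H3.3, was at 6.47, 7.20 and 6.80 in the EPO arrays, 6.59, 6.76 and 6.54 in IL-3/GM-CSF, 6.56, 6.63 and 6.72 in the combined culture and 7.16 in untreated cells. H3f3b, which encodes the same protein, was at 6.71, 7.20 and 6.90, at 6.58, 6.78 and 6.82, at 6.77, 7.08 and 7.07 in the same order, and at 7.03 in untreated cells. Both were highest in EPO Sca1-high cells and lower in Sca1-low than in Sca1-high cells of each culture. Their fitted fraction differences were -0.32 ± 0.24 and -0.33 ± 0.20 log2 (SE, n = 3 pairs, limma adjusted p = 0.39 and 0.32). Of the 3 probes of H3f3b the 2 bright ones gave -0.32 and -0.58 in EPO Sca1-low minus untreated and the dimmest gave -1.37, all below 0.

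Of the other variant linker histones only H1f8 was well above background on all 10 arrays. H1f8, known from oocytes, was at 0.56, -0.36 and -0.56 in EPO, -0.33, -0.49 and -0.98 in IL-3/GM-CSF, 0.00, -0.17 and -1.18 in the combined culture and -0.93 in untreated cells. The day 6 array was the lowest of each culture, and the fitted day 6 minus day 3 difference was -0.78 ± 0.22 log2 (SE, limma over 10 arrays, adjusted p = 0.41). H1f6, known from testis, ranged from -3.61 on EPO day 6 to -1.44 on EPO Sca1-low and was well above background on 9 arrays. H1f10, a linker histone of many tissues, ranged from -5.38 to -2.89 and was so on 5 arrays. H1f7, another testis gene, ranged from -6.33 to -3.90 and was so on 2.

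Against untreated cells no histone gene passed in any culture. In the additive limma fit of all 10 arrays, 0 of 49 members were called in EPO, in IL-3/GM-CSF or in combined minus untreated, where 0% of all genes passed in each. At an unadjusted p under 0.05 the member counts were 0, 2 and 0, beside 10.5%, 6.77% and 4.76% of all genes. The replication-dependent genes had medians of 0.43, 0.31 and 0.20 log2 and the variants of 0.14, 0.33 and -0.03, beside 0.12, 0.02 and -0.04 for all genes. The 2 genes with the lower p in IL-3/GM-CSF were H1f0 and H2bc21. H2bc21, an H2B gene of chromosome 3, was at -0.12, 0.44 and -0.12 in EPO, -0.35, -0.28 and -1.04 in IL-3/GM-CSF, -0.36, -0.05 and -0.65 in the combined culture and 0.36 in untreated cells. Its fitted difference was -0.91 ± 0.30 log2 (SE, limma, adjusted p = 0.64), and all 3 IL-3/GM-CSF arrays lay below untreated.
All day 3 arrays lay on other slides than the untreated array, and with slide as a block the replication-dependent medians turned to -0.23, -0.63 and -0.10. That fit called 1042, 298 and 63 genes, of which 0 were members in each. Under spike-in scaling they were -0.50, -0.077 and 0.076. Without the EPO Sca1-low array the EPO median was 0.11. Within the first slide the 42 genes had a median of 0.15 in EPO day 6 minus untreated and 0.24 in combined day 6 minus untreated, beside 0.16 and -0.02 for all genes.

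**Figure D5:**
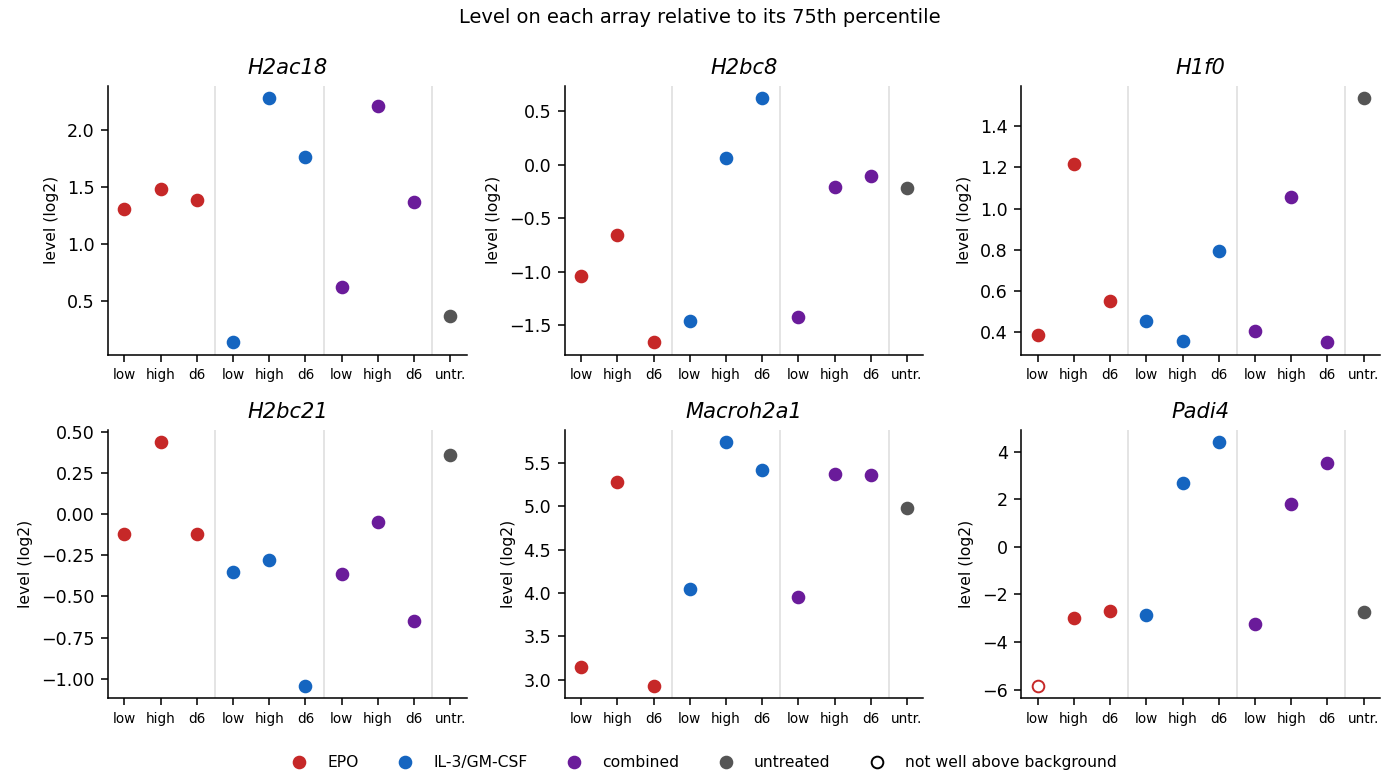
Level (log2, relative to the 75th percentile of the array) of H2ac18, H2bc8, H1f0, H2bc21, Macroh2a1 and Padi4 on the 10 arrays, as 1 point per array, coloured by culture (low and high are the Sca1 fractions of day 3, d6 is day 6). Axes differ between genes, and an open circle is a spot not well above background. H1f0 is highest in untreated cells, and Macroh2a1 and Padi4 are lower in the Sca1-low fraction of every culture.

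In EPO minus IL-3/GM-CSF 0 of 49 members passed (limma over 10 arrays), and 0.00703% of all genes did, which is 1 gene. At an unadjusted p under 0.05 the counts were 2 members and 18.9% of all genes. Replication-dependent genes had a median of 0.17 and variants of 0.19, beside 0.10 for all genes. The replication-dependent median was -0.11 without the EPO Sca1-low array.
The Sca1-low pair and the Sca1-high pair lay apart. In EPO Sca1-low minus IL-3/GM-CSF Sca1-low cells 24 of 42 replication-dependent genes were at least 2-fold higher and 1 was 2-fold lower, where 9.66% and 10.9% of all genes passed. By class the medians were 1.29 for H4 (8 of 8 above 0), 1.05 for H2A (12 of 13), 0.89 for H1 (4 of 4), 0.83 for H3 (7 of 7) and 0.40 for H2B (7 of 10). In EPO Sca1-high minus IL-3/GM-CSF Sca1-high cells 0 of 42 were 2-fold higher and 3 were 2-fold lower, beside 5.9% and 7.59% of all genes, and every class had its median below 0. The median over the 42 genes was 1.05 for the Sca1-low pair and -0.29 for the Sca1-high pair, and -0.24 and -0.29 under spike-in scaling. These are single arrays on each side, and the difference between the pairs was not tested.
At day 6, with 1 array on each side and on different slides, 2 of 42 replication-dependent genes were at least 2-fold higher in EPO than in IL-3/GM-CSF cells and 5 were 2-fold lower, where 16.3% and 17.1% of all genes passed. H2bc8 was -1.66 in EPO and 0.63 in IL-3/GM-CSF cells, its lowest and highest level of all arrays. The H4 gene H4c17 was 0.87 in EPO and 2.62 in IL-3/GM-CSF cells. The H3 gene H3c8 was 1.27 in EPO and 2.79 in IL-3/GM-CSF cells, also its extremes. H4c11, another H4 gene, ran the other way, at 3.76 in EPO and 2.56 in IL-3/GM-CSF cells. The H2B class as a whole had a median of -0.55 and the H2A class of 0.14.

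Between day 6 and day 3 no member passed either, with 0 of 49 called and 0% of all genes, and 3 members beside 9.64% of all genes at an unadjusted p under 0.05. The replication-dependent median was -0.11 log2 and the variant median -0.08, beside -0.00 for all genes. In the EPO culture alone, 20 of 42 replication-dependent genes were at least 2-fold lower at day 6 than in the Sca1-low fraction of day 3 and 1 was 2-fold higher, beside 8.18% and 5.28% of all genes. That value rests on the EPO Sca1-low array described above and on the percentile scaling. It sets unsorted cells against a sorted fraction, with the arrays on different slides. Under spike-in scaling the replication-dependent genes ran both ways. H2ac19 then differed from untreated cells by -0.60 log2 in EPO Sca1-low cells and by -0.07 at EPO day 6. H4c17 differed by -0.51 and -1.45 in the same order. The counts of 2-fold differences under that scaling are not given here.

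Some replication-dependent genes held nearly 1 level. H3c3 had the narrowest range, from 3.41 in IL-3/GM-CSF Sca1-low to 3.94 in untreated cells. H2bc4 ranged from 3.35 to 4.08, H3c4 from 6.81 to 7.58, H3c7 from 1.96 to 2.74 and H2ac8 from -1.32 to -0.53. The widest range was that of H2ac1, from -0.60 to 2.56, followed by H4c11 with 2.56 to 5.24. Of the 43 replication-dependent genes 35 spanned more than 1 log2. They include H1f3, not well above background on any array, and H2bc23, well above background on only 4. The share of all genes with such a span is not given here.

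Histone genes whose symbols fall outside the name pattern included one that was called. Macroh2a1, which encodes the large H2A variant macroH2A1, known from silent chromatin, was at 3.14, 4.05 and 3.96 in Sca1-low cells of the EPO, IL-3/GM-CSF and combined cultures, against 5.28, 5.75 and 5.38 in Sca1-high cells. At day 6 it was 2.93 in EPO, 5.42 in IL-3/GM-CSF and 5.36 in combined cells, and 4.98 in untreated cells. Sca1-low levels were below all Sca1-high levels, and the fitted difference was -1.75 ± 0.24 log2 (SE, n = 3 pairs, limma, adjusted p = 0.019). The call was lost when the IL-3/GM-CSF or the combined pair was left out (adjusted p = 0.11 and 0.079) and in the fit of all 10 arrays (adjusted p = 0.13).
It was the only one of the 9 tested genes of this list to pass. H4f16 (0.77), H2aw (-0.73) and Cenpa, the centromeric H3 variant (0.61), had the next largest differences, with adjusted p of 0.20, 0.11 and 0.16. The list's median was 0.19, against 0.17 over all genes.

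The genes that serve histone supply mostly did not pass. Of 12 tested genes for histone mRNA transcription and 3′ end processing, 0 were called in Sca1-low against Sca1-high cells, with a median of 0.31. Lsm11, a subunit of the particle that cuts histone mRNA ends, was at 1.96, 1.07 and 0.77 in Sca1-low cells, against 0.56, 0.59 and -0.19 in Sca1-high cells. Its fitted difference was 0.94 (limma adjusted p = 0.091). Cpsf2, Cpsf3 and Zfp473 followed at 0.65, 0.51 and 0.45. Slbp, which binds the stem-loop, was at 1.92, 2.18 and 2.15 in Sca1-low and 1.81, 1.83 and 1.79 in Sca1-high cells.
Of 22 histone chaperone genes 1 was called higher and 0 lower, beside 4.09% and 6.98% of all genes, with a median of 0.24, against 0.17 over all genes. It was Ipo4, an import factor for H3 and H4, at 4.15, 3.55 and 3.51 in Sca1-low and 2.92, 2.61 and 2.48 in Sca1-high cells (1.07 ± 0.20 log2, SE, n = 3 pairs, limma, adjusted p = 0.041), and its call was lost in 7 of 14 alternatives, among them each left-out pair and spike-in scaling (limma adjusted p of 0.056 to 0.65). Hjurp, Asf1a and Hat1 were at 0.71, 0.55 and 0.51 and did not pass.

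DNA replication genes gave 2 calls among 23, both higher in Sca1-low cells, beside 4.09% of all genes called higher. The list's median was 0.37, against 0.17 over all genes. Ccne1, the cyclin E1 gene of S phase entry, was at 6.10, 5.29 and 5.04 in Sca1-low cells, against 4.02, 3.95 and 3.02 in Sca1-high cells (1.81 ± 0.25 log2, SE, n = 3 pairs, limma, adjusted p = 0.019). Cdc6, which loads the replicative helicase, was at 3.31, 2.75 and 2.51 in Sca1-low cells and 2.04, 1.65 and 0.91 in Sca1-high cells (1.32 ± 0.22 log2, adjusted p = 0.029). Both were higher in Sca1-low cells in every culture, and the calls were lost in 4 and 5 of 14 alternatives (limma adjusted p of 0.079 to 0.12 for Ccne1 and of 0.052 to 0.43 for Cdc6), among them spike-in scaling and leaving out the IL-3/GM-CSF or the combined pair. Tk1 and Prim1, with 0.75 and 0.71, did not pass.

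Genes of chromatin condensation and nuclear architecture gave 4 calls among 18, 2 higher and 2 lower, beside 4.09% and 6.98% of all genes. Padi4, the arginine deiminase that citrullinates histones in neutrophils, was at -5.85, -2.88 and -3.26 in Sca1-low cells, against -2.99, 2.70 and 1.81 in Sca1-high cells. Its spot on the EPO Sca1-low array was not marked as well above background, and it reached 4.42 and 3.52 at day 6 in IL-3/GM-CSF and combined cells, against -2.75 in untreated cells. The fitted difference was -4.50 ± 0.58 log2 (SE, n = 3 pairs, limma, adjusted p = 0.017). Padi2, a related deiminase, was at -1.18, 0.16 and 0.02 in Sca1-low cells and 2.37, 4.11 and 4.11 in Sca1-high cells (-3.86 ± 0.22 log2, adjusted p = 0.0043).
Lmna, the lamin A/C gene, and Hmgb3, a chromatin protein of blood progenitors, were called higher in Sca1-low cells, by 1.33 ± 0.26 and 1.21 ± 0.23 log2 (limma, n = 3 pairs, adjusted p = 0.045 and 0.041). Lmna and Hmgb3 each lost the call in 8 of 14 alternatives (limma adjusted p of 0.055 to 0.46 and of 0.058 to 0.56). Padi2 lost it in 2 of 14 (0.054 to 0.12) and Padi4 in 3 of 13 (0.058 to 0.11). Without the IL-3/GM-CSF pair none of the 4 passed. Neutrophil markers followed the deiminases only in part. Their median level was -1.93, -0.44 and -2.60 in Sca1-low cells, against -0.73, 3.91 and 2.04 in Sca1-high cells. Of the 9 markers 2 were called lower, beside 6.98% of all genes. In the EPO pair Mpo and Cebpe differed by -6.69 and -6.30 log2 (Sca1-low minus Sca1-high). All other markers were higher in Sca1-low cells there, from 0.43 for Elane to 3.61 for Ngp. Among them S100a8 was not well above background on either array of the pair. S100a9 was not so in Sca1-low cells, its higher side, so its direction is not known. Cebpe was not so in Sca1-low cells, nor Ngp in Sca1-high cells, so the sizes of their differences are not known. Whether the share of neutrophil-like cells sets these values was not tested.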

How the data were processed

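The authors deposited 1 Agilent Feature Extraction 11.0.1.1 file per array, and per the file headers each processed intensity came from protocol GE1_1100_Jul11 on an mm9 grid. The series matrix held the same intensities, with 0 values that differed. The other steps before deposit are not given in the sources used here. Precision is limited by 1 array per condition.

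Non-control spots (59305 of 62976 per array) were kept, log2 processed intensity minus the array's 75th percentile was taken, and repeat spots were averaged. RefSeq accessions named 27235 of 55681 probes, and the brightest probe of a gene was kept. A gene was tested when its spot was marked well above background on 2 or more arrays (14217 genes). Tests used limma 3.58.1 in R 4.3.3, with lmFit and eBayes and Benjamini-Hochberg adjustment over all genes at 0.05. The 6 day 3 arrays were fitted with culture as a block (2 residual degrees of freedom). The other 5 comparisons came from an additive model of all 10 arrays with treatment means and population offsets (4 residual degrees of freedom), so that the treatment-by-population interaction served as error. Single arrays were compared by a 2-fold limit, with the higher side well above background. On simulated data with 14217 genes the day 3 fit recovered 1, 19, 43 and 44 of 50 genes shifted by 1, 2, 4 and 6 log2, with 5 false calls.

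Normexp used the median signal, since no mean signal column was in the files. Members, gene lists and tests were chosen with earlier results of these data known. Values on every array were given for variants, called genes, the 10 largest fraction differences and the 5 widest and 5 narrowest ranges. Of each other list the called genes and the 4 with the largest fraction difference were named. Other genes (H2ac19, H2ac8, H2ac12, H2bc1, H2bc21, H4c17, H3c8 and Slbp) were chosen after their values were seen. Scaling to spike-ins and the unscaled intensities were added after seeing the data.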

Additional observations from a re-analysis of the deposited data

Results flagged for a closer look

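The Sca1-low minus Sca1-high difference of the replication-dependent histone genes took opposite signs in the EPO and IL-3/GM-CSF cultures. Its median over 42 genes was 0.98 log2 in EPO, -0.31 in IL-3/GM-CSF and 0.15 in the combined culture, each from 1 pair of arrays. The difference between the cultures was not tested. With spike-in scaling the 3 medians were -0.26, -0.26 and -0.29, so the opposite signs were not seen under that scaling. The 75th percentile was 309 on the EPO Sca1-low array and 617 on the EPO Sca1-high array.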

How the results depend on the processing

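No paired analysis was possible because every label carries replicate 1, so replicate numbers pair no samples. The 3 fraction pairs of day 3 are pairs by culture, and the fit already holds culture as a block. With 1 array per condition no spread between replicates exists, and a median that moved by over 0.1 log2 was counted as moved. Series matrix values and ignoring the spot flags moved no median or count of calls past those limits. In each case below the cause was not tested.

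Leaving out 1 pair or array at a time gave replication-dependent medians of -0.12 to 0.60 for Sca1-low minus Sca1-high (variants -0.14 to 0.12, H4c3 -0.050 to 0.96, 0 to 3 histone genes and 0 to 2309 genes called). The medians were 0.11 to 0.70 for EPO, 0.11 to 0.53 for IL-3/GM-CSF and 0.074 to 0.32 for combined minus untreated, with 0 to 1, 0 to 7 and 0 to 1 genes called. They were -0.11 to 0.42 for EPO minus IL-3/GM-CSF (0 to 131 genes called) and -0.29 to 0.054 for day 6 minus day 3 (0 to 790 called). The 2309 calls, the -0.12 and the 3 histone genes (H2ac18, H2bc8 and H2bc23) came without the EPO pair, 464 calls without the combined pair and 0 without the IL-3/GM-CSF pair. The 7 and 131 calls came without EPO Sca1-low, the 790 without EPO day 6, and the single calls against untreated without IL-3/GM-CSF day 6. Dim spots limit H2ac6, H2bc23, H1f7 and H1f10.

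Spike-in scaling reversed the replication-dependent medians to -0.19 for Sca1-low minus Sca1-high (2 histone genes called), -0.50 for EPO minus untreated, -0.077 for IL-3/GM-CSF minus untreated, -0.37 for EPO minus IL-3/GM-CSF (67 genes called) and 0.18 for day 6 minus day 3 (1 gene called), and gave 0.076 for combined minus untreated. The variant medians reversed to -0.78 for EPO minus untreated, -0.056 for IL-3/GM-CSF minus untreated, -0.35 for EPO minus IL-3/GM-CSF and 0.21 for day 6 minus day 3, and H4c3 to -0.014 between the fractions. The count of all genes called between the fractions under this scaling is not given here, so the 2 histone genes have no background beside them. For single arrays spike-in scaling gave -0.53 in EPO Sca1-low minus untreated, -0.26 in EPO Sca1-low minus Sca1-high and -0.41 in EPO minus IL-3/GM-CSF at day 6.

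Slide as a block turned the replication-dependent medians to -0.23 (EPO), -0.63 (IL-3/GM-CSF) and -0.10 (combined) against untreated and to 0.54 for day 6 minus day 3, with 1042, 298, 63 and 656 genes called, and gave 0.39 and 0 calls for EPO minus IL-3/GM-CSF. Variant medians turned to -0.37 and -0.61 (EPO, IL-3/GM-CSF) against untreated and to 0.26 in day 6 minus day 3.

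Quantile normalization lowered the replication-dependent medians to 0.062 between the fractions and to 0.062, 0.17 and 0.10 against untreated (EPO, IL-3/GM-CSF, combined), and reversed EPO minus IL-3/GM-CSF to -0.065. The variant medians reversed to -0.49 for EPO minus untreated and -0.059 for EPO minus IL-3/GM-CSF. Single arrays gave 0.44 (1.54 above the variants) in EPO Sca1-low minus untreated, 0.41 (1.31 above) in EPO Sca1-low minus Sca1-high and -0.36 in EPO minus IL-3/GM-CSF at day 6. Normexp with quantile normalization gave 0.045 between the fractions, 0.057, 0.15 and 0.075 against untreated, -0.040 for EPO minus IL-3/GM-CSF (2 genes called), -0.10 for the variants in EPO minus untreated, and 0.34 (1.36 above), 0.40 (1.19 above) and -0.34 for those single arrays.

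The 75th percentile over probes bright on all arrays gave 0.19 between the fractions, 0.30 for EPO minus untreated, 0.035 and 0 calls for EPO minus IL-3/GM-CSF. On it the single arrays gave 1.03, 0.81 and -0.35. Genes well above background on all 10 arrays gave 2422 calls between the fractions, of which 2 were histone genes, 1 call in IL-3/GM-CSF minus untreated and variant medians of -0.21 (EPO) and -0.42 (IL-3/GM-CSF) against untreated. No filter on dim genes gave 1025 calls and the fit of all 10 arrays 0 calls between the fractions. The mean of all probes of a gene put replication-dependent above variant genes by 1.94 in EPO Sca1-low minus untreated and 1.77 in EPO Sca1-low minus Sca1-high.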
